A study of Mus musculus with 3 samples.

Results

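Glycolysis and the response to low oxygen were described through 31 mouse genes, chosen by symbol from the 31062 genes of a single-cell RNA matrix of metastasis-bearing brains. All 31 were found, and each had at least 1 UMI (unique molecular identifier, 1 counted transcript) in the cells analysed. They comprise 2 glucose transporters (Slc2a1, Slc2a3), 16 glycolytic enzyme genes from hexokinase to lactate dehydrogenase, 2 lactate transporters (Slc16a1, Slc16a3), 3 regulatory kinases (Pdk1, Pfkfb3, Pfkfb4) and 8 hypoxia response genes (Bnip3, Ndrg1, Adm, Car9, Egln3, Ankrd37, P4ha1, P4ha2). Their levels were compared between cell types, their isoforms within each family, and their spread among tumour cells.

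The mice were C57Bl/6 females aged 2 to 3 months, and their brain metastases grew from E0771, a mouse mammary carcinoma line injected into the carotid artery. Some mice were given checkpoint blockade (anti-VISTA with anti-PD-L1) on alternate days from day 3 and the others were not. Suspensions enriched for immune cells on a Percoll gradient were stained with 35 antibodies, marked with 8 hashtag antibodies and pooled in 1 capture, and the transcript library was labelled as holding 1 hemisphere per biological sample. The 3 libraries of the series (transcripts, antibody tags, hashtags) come from that capture, and share 1 barcode list. No label says which hashtags marked treated brains, so treated and untreated brains were not compared and hashtag samples are described by number.

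Of 12908 barcodes, 9896 passed the filters as hashtag singlets, and hashtag samples 1 to 8 held between 100 and 2316 of them, with 4898693 to 125193153 UMIs. A total of 7233 singlets fell into 1 of 13 gates on marker UMIs that used none of the 31 genes. Of 25 listed markers that the gates did not require, 23 were highest in their own gate. The exceptions were Sparc, which was 2407 CPM (UMIs per 1000000 UMIs) in microglia and 6345 CPM in pericytes, and Ly6c2, which was 1354 CPM in monocytes and 1358 CPM in macrophages. The tumour gate needed Krt8, an epithelial keratin (median 381 CPM), and excluded Ptprc, the leukocyte antigen CD45 (1.69 CPM). The other epithelial markers did not help to identify these cells: Krt18 had a median of 4.13 CPM and Krt7, Krt19, Epcam and Cdh1 at most 0.31 CPM. These cells are therefore called Krt8+ Ptprc- cells. Their median of 84590 UMIs per cell stood above 14140 UMIs in macrophages, 9118 in monocytes, 7662 in microglia and 6618 in endothelial cells. Their hashtag doublet share was 12.01%, against 18.2% among barcodes in the macrophage gate and 2.12% in the endothelial gate. Carry-over of transcripts from Krt8+ Ptprc- cells into the other gates was gauged by 1 gene only. Rhox5, a homeobox gene chosen for this purpose after its values had been seen, was 604 CPM in Krt8+ Ptprc- cells, and in the 12 other gates it lay between 2.31 and 6.73% of that. Whether these UMIs were carried over or came from the cells themselves was not tested.

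Glycolysis turns glucose into pyruvate, which lactate dehydrogenase can reduce to lactate for export. In low oxygen the transcription factor HIF-1 is no longer marked for destruction by prolyl hydroxylases, and it raises many of these enzymes and transporters together with genes of pH control, mitophagy and collagen modification. In the brain, endothelial cells carry glucose across the blood-brain barrier with Slc2a1, and tumour cells often run glycolysis at a high rate.

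HIF-1 is known to bind the core letters ACGTG or GCGTG. RefSeq promoter windows (build GRCm38.p6, 250 bases before to 50 after each start) were held for 29 of the 31 genes (all but Slc2a3 and Ndrg1), in 42 windows, and either core was present on either strand in 34 of them (81.0%), against 43.8% of 32851 windows of all genes. ACGTG alone was present in 54.8% of the members' windows, against 19.6% of all windows. The members' windows were also richer in G and C (median 61.8%, against 52.7% in all windows), and the part of base composition in these shares was not tested. Many members are known targets of HIF-1, so their higher share is not independent evidence. The 42 windows of 29 genes are also not independent of each other. The windows below belong to the 4 genes that differed most between Krt8+ Ptprc- cells of high and low hypoxia score, and to Slc16a1, which did not pass that test. Capitals mark ACGTG or GCGTG, or CACGT or CACGC where the match is on the other strand, and neighbouring matches can overlap.
Car9, chr4:43506776-43507075, plus strand: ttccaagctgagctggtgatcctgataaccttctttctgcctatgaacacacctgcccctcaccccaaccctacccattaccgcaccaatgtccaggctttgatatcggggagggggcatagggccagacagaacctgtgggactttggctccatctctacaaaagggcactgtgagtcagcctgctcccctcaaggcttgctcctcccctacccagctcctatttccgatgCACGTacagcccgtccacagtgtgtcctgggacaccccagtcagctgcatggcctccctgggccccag
Bnip3, chr7:138909457-138909756, minus strand: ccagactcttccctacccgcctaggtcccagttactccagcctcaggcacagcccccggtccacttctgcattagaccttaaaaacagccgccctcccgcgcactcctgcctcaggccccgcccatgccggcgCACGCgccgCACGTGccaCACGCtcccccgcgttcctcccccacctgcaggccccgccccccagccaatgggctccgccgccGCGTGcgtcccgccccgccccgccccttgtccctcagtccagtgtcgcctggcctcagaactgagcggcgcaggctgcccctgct
Adm, chr7:110627407-110627706, plus strand: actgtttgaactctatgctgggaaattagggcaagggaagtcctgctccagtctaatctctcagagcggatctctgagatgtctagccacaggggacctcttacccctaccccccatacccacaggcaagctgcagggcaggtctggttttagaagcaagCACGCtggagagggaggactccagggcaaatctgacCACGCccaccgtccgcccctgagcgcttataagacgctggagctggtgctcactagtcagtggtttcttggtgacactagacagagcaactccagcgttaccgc
Ankrd37, chr8:45999801-46000100, minus strand: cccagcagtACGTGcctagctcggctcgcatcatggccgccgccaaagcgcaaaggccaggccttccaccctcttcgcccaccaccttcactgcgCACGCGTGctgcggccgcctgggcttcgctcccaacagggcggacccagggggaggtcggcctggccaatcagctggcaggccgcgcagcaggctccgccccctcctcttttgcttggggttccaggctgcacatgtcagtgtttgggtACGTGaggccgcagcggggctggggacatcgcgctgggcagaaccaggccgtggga
Slc16a1, chr3:104638414-104638713, plus strand: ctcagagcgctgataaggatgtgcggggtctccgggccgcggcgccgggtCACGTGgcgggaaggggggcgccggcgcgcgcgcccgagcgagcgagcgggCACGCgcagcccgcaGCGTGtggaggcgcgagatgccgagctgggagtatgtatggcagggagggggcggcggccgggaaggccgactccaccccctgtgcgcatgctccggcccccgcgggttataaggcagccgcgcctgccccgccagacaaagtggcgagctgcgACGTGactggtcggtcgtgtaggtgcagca
The window of Car9 (carbonic anhydrase 9, which acts in pH control at the cell surface) held 1 match, at 18 bases before the start. The window of Bnip3 (a mitophagy receptor) held 5, that of Adm (adrenomedullin, a vasodilator peptide) 2, that of Ankrd37 (an ankyrin repeat protein) 4, and that of Slc16a1 5. A match is only a match of letters, and the gene without a difference held as many as the gene with the most among the other 4.

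Levels were first set side by side over the 8 cell types with at least 3 usable hashtag samples, a usable one holding at least 20 cells of the type. For Slc2a1, the glucose transporter GLUT1, endothelial cells ranged from 1277 to 3065 CPM over 7 hashtag samples with a median of 1465 CPM. Monocytes followed at 70.9 to 104 CPM (median 98.5, 6 samples) and Krt8+ Ptprc- cells at 59.5 to 112 CPM (median 72.3, 8 samples). The endothelial range overlapped no other, whereas those of monocytes and Krt8+ Ptprc- cells overlapped each other. Medians in the remaining 5 types fell between 21.9 CPM in natural killer (NK) cells and 45.1 CPM in macrophages. Slc2a3, the neuronal and leukocyte transporter GLUT3, showed another order. Its medians were 28.5 CPM in NK cells and 26.6 CPM in CD8 T cells, with overlapping ranges, and it was listed at a median of 0 in endothelial cells and monocytes.

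Among the enzymes, Krt8+ Ptprc- cells had the highest levels of Gapdh, Ldha, Pgk1, Tpi1 and Pgam1 without overlap. Gapdh (glyceraldehyde-3-phosphate dehydrogenase) was at 3069 to 3987 CPM there, Ldha (lactate dehydrogenase A) at 1135 to 1494 CPM and Pgk1 (phosphoglycerate kinase) at 577 to 789 CPM, and none of these ranges overlapped that of the next type. Tpi1 (triosephosphate isomerase) and Pgam1 (phosphoglycerate mutase) did likewise. Eno1 (enolase 1) was also highest there but overlapped monocytes, and Pkm (pyruvate kinase) was highest in monocytes, at a median of 1011 CPM, against 877 CPM in Krt8+ Ptprc- cells. The summed level of the 16 enzyme genes was 8978 to 11190 CPM in Krt8+ Ptprc- cells (median 9668), above 4865 to 6593 CPM in macrophages (median 5286) and all other types. Microglia were at the low end with 2415 to 3672 CPM (median 3058), beside NK cells with 2864 to 4263 CPM (median 2989). Microglia were nonetheless the highest type for Hk2 (hexokinase 2, the first enzyme of the pathway), at 133 to 164 CPM, against a median of 64.3 CPM in monocytes, the next type.

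**Figure D1:**
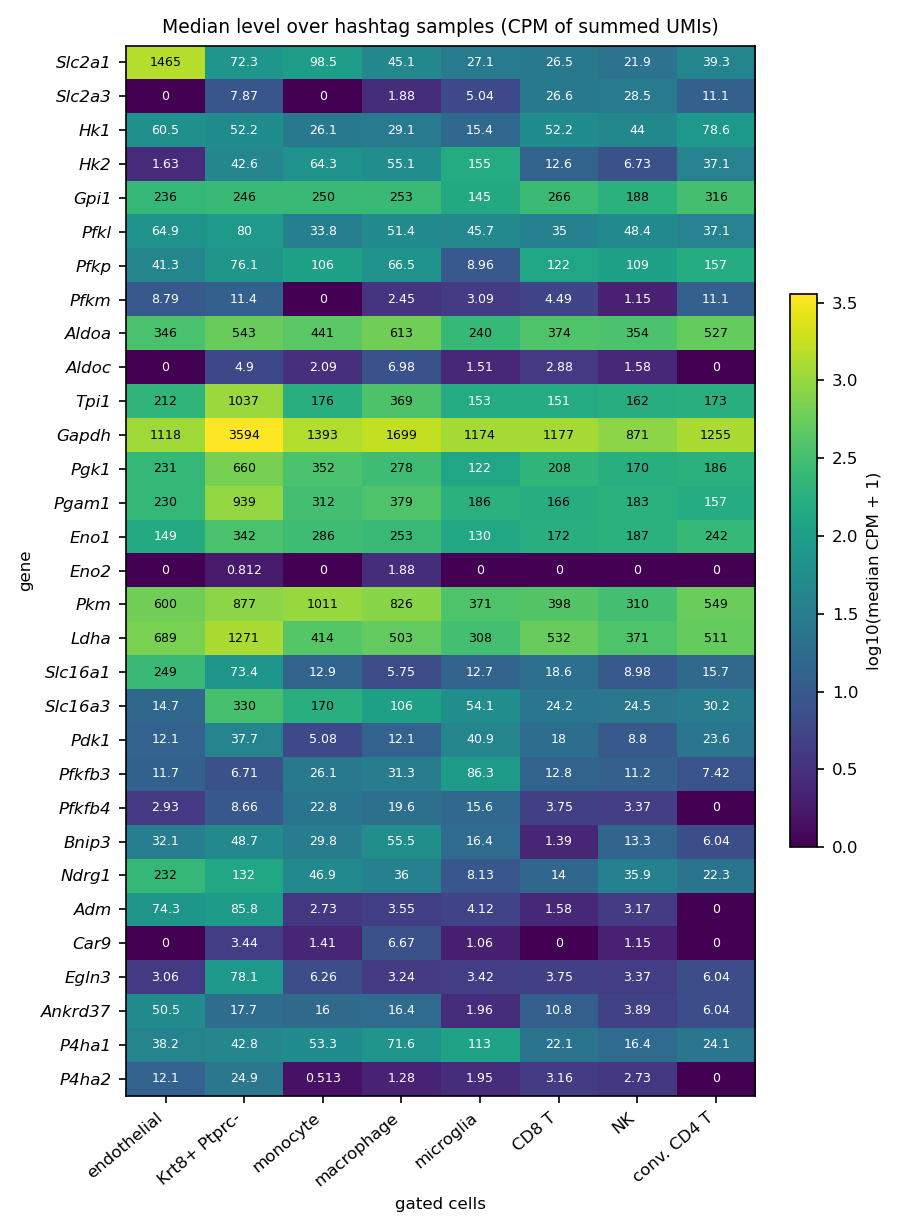
Median level (CPM of summed UMIs) of each of the 31 genes over the usable hashtag samples of 8 gated cell types, with the value printed in each cell and the colour on a log10 scale after 1 was added. Slc2a1 stands out at 1465 CPM in endothelial cells, Hk2 at 155 CPM in microglia, and Gapdh, Tpi1, Pgam1 and Ldha in Krt8+ Ptprc- cells.

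Counting each gene once by its highest median, 12 of 31 genes were highest in Krt8+ Ptprc- cells, 5 in macrophages, 4 each in microglia and endothelial cells, 3 in conventional CD4 T cells, 2 in monocytes and 1 in NK cells. Of these, 7 in Krt8+ Ptprc- cells, 3 in microglia, 3 in endothelial cells and 1 in macrophages did not overlap the next type. The 3 in microglia were Hk2, Pfkfb3 (a kinase that makes an activator of phosphofructokinase) and P4ha1 (a collagen prolyl hydroxylase subunit). The 3 in endothelial cells were Slc2a1, the lactate transporter Slc16a1 (MCT1) and Ankrd37. Such counts by highest type were not made over all genes, so whether those of the members differ from the background is not known. The 8 hypoxia response genes together reached medians of 439 CPM in Krt8+ Ptprc- cells and 407 CPM in endothelial cells, with overlapping ranges, and 58.2 to 205 CPM in the 6 other types.

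**Figure D2:**
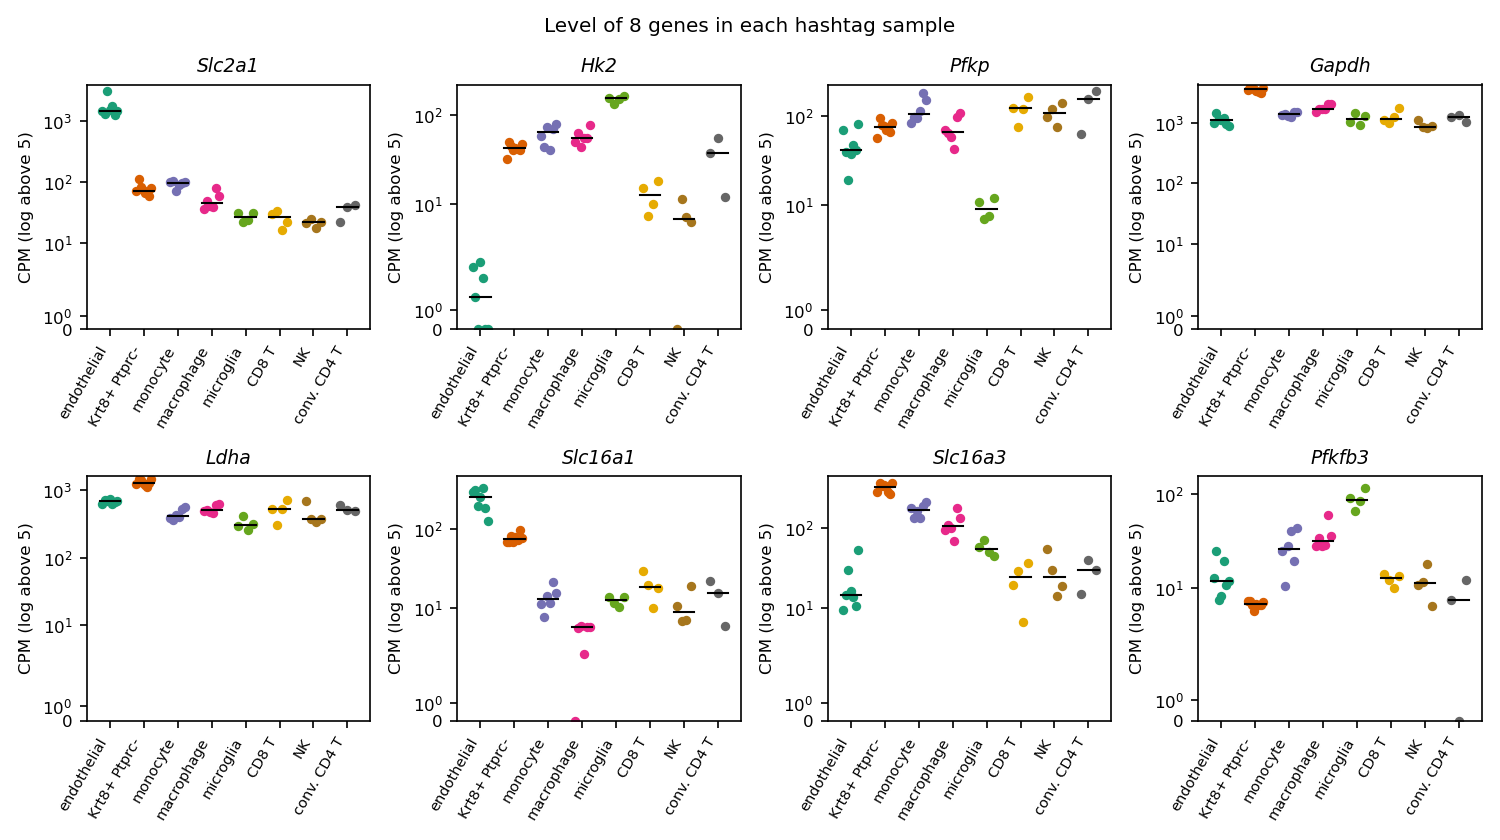
Level of 8 genes in each usable hashtag sample (points, CPM, log axis above 5) with the median as a bar, for 8 gated cell types. Endothelial cells lie apart for Slc2a1 at 1277 CPM or more, microglia for Hk2 at 133 CPM or more, and Krt8+ Ptprc- cells for Gapdh at 3069 CPM or more.

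The next comparison asked how tumour cells and tumour macrophages differ, in the 6 hashtag samples with enough of both (2, 3, 5, 6, 7 and 8). Raw UMIs were summed per hashtag sample and gate and tested with edgeR, blocking on hashtag sample, and p-values were adjusted over all genes tested. The labels leave unsaid whether hashtags stand for different mice, so the p-values speak only to the variation among hashtag samples, which may in part be technical. Fold changes are after TMM scaling, whereas CPM values are per library total, so the sign of a small fold change can differ from that of the CPM. Of the 31 genes, 16 were higher in Krt8+ Ptprc- cells than in macrophages, 11 were lower and 4 did not pass. Over all 11928 genes tested, 79.5% passed (44.1% higher, 35.4% lower), so the members' share was near the background. The median log2 fold change of the members was 0.46, beside 0.19 over all genes. Of the enzymes 8 were higher, 6 lower and 2 not passed, and of the hypoxia response genes 4, 3 and 1.

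The largest differences were in genes outside the enzyme core. Adm ranged from 42.5 to 116 CPM in Krt8+ Ptprc- cells (median 72.5) and from 2.84 to 4.54 CPM in macrophages (median 3.55), a log2 fold change of 3.86 (SE 0.18, adjusted p = 7.58e-13, higher in 6 of 6 hashtag samples). Egln3, an oxygen sensor that hydroxylates HIF, had a median of 74.3 CPM in Krt8+ Ptprc- cells (65.2 to 81.2) and 3.24 CPM in macrophages (2.25 to 7.10), a log2 fold change of 3.77 (SE 0.17, adjusted p = 4.73e-13, 6 of 6). P4ha2, a second collagen prolyl hydroxylase subunit, had 27.3 CPM in Krt8+ Ptprc- cells (21.1 to 45.4) and 1.28 CPM in macrophages (0 to 6.75), a log2 fold change of 3.71 (SE 0.33, adjusted p = 7.05e-09, 6 of 6). The groups did not overlap for any of these 3 genes, and Rhox5, a gene of Krt8+ Ptprc- cells, reached 2.72% of its level there in the macrophage gate. Slc16a1 followed at 68.7 to 96.5 CPM in Krt8+ Ptprc- cells (median 77.5) and 0 to 6.06 CPM in macrophages (median 5.75), a log2 fold change of 3.59 (SE 0.17, adjusted p = 7.07e-13, 6 of 6). Pfkm (muscle phosphofructokinase) rose by 1.88 on the log2 scale (SE 0.24, adjusted p = 8.13e-07, 6 of 6). Ndrg1, a stress-induced gene, rose by 1.55 (SE 0.11, adjusted p = 5.28e-10, 6 of 6).

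In the lower pathway Gapdh, Pgk1, Pgam1 and Ldha were higher in Krt8+ Ptprc- cells, Eno1 did not pass and Pkm was lower. Ldha was 1135 to 1494 CPM in Krt8+ Ptprc- cells (median 1349) and 465 to 630 CPM in macrophages (median 503), a log2 fold change of 1.01 (SE 0.08, adjusted p = 6.06e-10, 6 of 6). Pgk1 was 577 to 789 CPM in Krt8+ Ptprc- cells (median 668) and 230 to 388 CPM in macrophages (median 278), a log2 fold change of 0.85 (SE 0.10, adjusted p = 3.8e-07, 6 of 6). Gapdh rose by 0.67 (SE 0.08, adjusted p = 8.7e-07, 6 of 6). Neither the Ldha nor the Pgk1 groups overlapped. Pkm was lower by the test, at a log2 fold change of -0.27 (SE 0.08, adjusted p = 0.00803), but its sign turned to 0.06 without TMM scaling and to 0.11 with each cell weighted equally, and its CPM was higher in Krt8+ Ptprc- cells in 4 of 6 samples. Without TMM the median of all genes moved up by 0.33, the genes that passed were 65.2% higher instead of 55.5%, and the members' split became 18 higher and 7 lower. With each cell weighted equally (limma), 5 members were lower.

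The regulatory kinases went both ways. Pdk1, which holds pyruvate out of the TCA cycle, was 31.6 to 38.4 CPM in Krt8+ Ptprc- cells (median 36.9) and 7.81 to 13.9 CPM in macrophages (median 12.1), a log2 fold change of 1.26 (SE 0.15, adjusted p = 3.04e-07, higher in 6 of 6), without overlap. Pfkfb3 was 6.52 to 7.19 CPM in Krt8+ Ptprc- cells (median 6.71) and 27.6 to 59.3 CPM in macrophages (median 31.3), a log2 fold change of -2.67 (SE 0.16, adjusted p = 2.38e-11, lower in 6 of 6). Pfkfb4, its paralog, fell by 1.49 (SE 0.17, adjusted p = 3.13e-07, lower in 6 of 6). P4ha1 fell by 0.98 (SE 0.09, adjusted p = 1.22e-08, lower in 6 of 6). The groups of Pfkfb3, Pfkfb4 and P4ha1 were apart. Hk2 was 40.5 to 50.5 CPM in Krt8+ Ptprc- cells (median 44.3) and 43.5 to 77.3 CPM in macrophages (median 55.1), a log2 fold change of -0.69 (SE 0.11, adjusted p = 1.18e-05, lower in 5 of 6).

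Lower members of low level were Eno2 (neuronal enolase, -1.998, SE 0.40, adjusted p = 0.000174), Car9 (-1.67, SE 0.34, adjusted p = 0.000227, lower in 5 of 6) and Aldoc (brain aldolase, -1.24, SE 0.27, adjusted p = 0.000379). The Eno2 difference rests on 24 UMIs in macrophages and 302 in Krt8+ Ptprc- cells. Slc2a1 did not pass: it was 59.5 to 112 CPM in Krt8+ Ptprc- cells (median 73.7) and 36.3 to 78.7 CPM in macrophages (median 45.1), a log2 fold change of 0.25 (SE 0.15, adjusted p = 0.152, higher in 5 of 6).

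Among related lists, 6 of 16 tested other glycolysis genes were higher in Krt8+ Ptprc- cells and 6 lower. Hk3 (hexokinase 3, the myeloid isoform) fell by 8.33 (SE 0.14, adjusted p = 2.26e-19) and Slc16a7 (the pyruvate and lactate transporter MCT2) by 8.44, while Eno3 (muscle enolase) rose by 2.01 and Tigar (a fructose bisphosphatase) by 1.24. Of 28 other hypoxia response genes, 16 were higher, led by Plod2 (a lysyl hydroxylase, 5.25) and Ak4 (an adenylate kinase, 4.20), and 9 were lower, led by Plin2 (a lipid droplet protein, -2.87) and Gbe1 (glycogen branching enzyme, -2.46). In the TCA cycle, the mitochondrial pathway that oxidises pyruvate carbon, 13 of 21 genes were higher and 5 lower. In the pentose phosphate pathway, which branches off glycolysis, 3 of 7 were higher and 4 lower.

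Brain endothelial cells were then set against Krt8+ Ptprc- cells in 7 hashtag samples (2 to 8), and the Krt8+ Ptprc- cells were also used in the comparison above. Endothelial cells had far more of the blood-brain barrier transporters and less of nearly every enzyme: 5 of the 30 genes tested were higher in endothelial cells, 22 lower and 3 not passed, where 71.2% of 11868 genes passed (32.3% higher, 38.8% lower). The members' median log2 fold change was -0.996, beside -0.12 over all genes. None of the 15 tested enzymes was higher with an adjusted p under 0.05, nor at an unadjusted p under 0.05 by edgeR or DESeq2 (0 and 0), 13 were lower and 2 did not pass. With stricter gates, which left 4 hashtag samples, 3 members were higher.

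Slc2a1 was 1277 to 3065 CPM in endothelial cells (median 1465) and 59.5 to 112 CPM in Krt8+ Ptprc- cells (median 73.5), a log2 fold change of 4.25 (SE 0.15, adjusted p = 1.27e-17, higher in 7 of 7 hashtag samples). Slc16a1 was 123 to 326 CPM in endothelial cells (median 249) and 67.0 to 96.5 CPM in Krt8+ Ptprc- cells (median 75.8), a log2 fold change of 1.46 (SE 0.15, adjusted p = 4.72e-09, 7 of 7). Neither pair of groups overlapped. Ankrd37 was 34.6 to 90.8 CPM in endothelial cells (median 50.5) and 11.8 to 24.96 CPM in Krt8+ Ptprc- cells (median 17.5), a log2 fold change of 1.396 (SE 0.14, adjusted p = 7.72e-09, 7 of 7). Pfkfb3 rose by 0.89 (SE 0.25, adjusted p = 0.00295, 7 of 7) and Ndrg1 by 0.63 (SE 0.15, adjusted p = 0.000617, 6 of 7).

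The lower members included the other transporter of each pair. Slc16a3 (MCT4, the lactate exporter of glycolytic cells) was 9.56 to 52.7 CPM in endothelial cells (median 14.7) and 267 to 367 CPM in Krt8+ Ptprc- cells (median 336), a log2 fold change of -4.27 (SE 0.17, adjusted p = 1.55e-16, lower in 7 of 7). Hk2 was 0 to 3.41 CPM in endothelial cells (median 1.63) and 40.5 to 50.5 CPM in Krt8+ Ptprc- cells (median 43.0), a log2 fold change of -4.55 (SE 0.28, adjusted p = 7.62e-13, 7 of 7). These groups were far apart, and Rhox5 in the endothelial gate was 2.35% of its level in Krt8+ Ptprc- cells. Egln3 was 0 to 7.49 CPM in endothelial cells (median 3.06) and 65.2 to 93.9 CPM in Krt8+ Ptprc- cells (median 78.9), a log2 fold change of -4.71 (SE 0.21, adjusted p = 2.22e-15, 7 of 7). Slc2a3 fell by 2.86 (SE 0.46, adjusted p = 8.26e-06), Tpi1 by 2.49 (SE 0.12, adjusted p = 1.3e-14) and Pgam1 by 2.15 (SE 0.09, adjusted p = 4.87e-16), each in 7 of 7 samples.

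Gapdh was 894 to 1437 CPM in endothelial cells (median 1118) and 3069 to 3987 CPM in Krt8+ Ptprc- cells (median 3626), a log2 fold change of -1.84 (SE 0.09, adjusted p = 1.32e-14, lower in 7 of 7). Pgk1 was 182 to 311 CPM in endothelial cells and 577 to 789 CPM in Krt8+ Ptprc- cells, a log2 fold change of -1.68 (SE 0.10, adjusted p = 2.99e-13, 7 of 7). Ldha was 624 to 746 CPM in endothelial cells and 1135 to 1494 CPM in Krt8+ Ptprc- cells, a log2 fold change of -1.11 (SE 0.09, adjusted p = 4.55e-11, 7 of 7). The groups were apart for all 3, with the smallest gap on the log2 scale in Ldha. Hk1 (hexokinase 1) did not pass, at 0.06 (adjusted p = 0.642), nor did Adm, which was 12.2 to 197 CPM in endothelial cells (median 74.3) and 42.5 to 116 CPM in Krt8+ Ptprc- cells (median 75.4). Eno2 was too low to be tested.

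Of 29 other hypoxia response genes tested, 9 were higher in endothelial cells and 15 lower. Epas1, which encodes HIF-2 alpha, was 468 to 839 CPM in endothelial cells (median 663) and 0.361 to 0.628 CPM in Krt8+ Ptprc- cells (median 0.400), a log2 fold change of 10.40 (SE 0.15, adjusted p = 1.39e-24, 7 of 7). Gbe1 rose by 4.61, and Vegfa (vascular endothelial growth factor) fell by 3.17 and Loxl2 (a lysyl oxidase) by 2.77. Ldhb (lactate dehydrogenase B) rose by 7.10 and Pdk2 (a pyruvate dehydrogenase kinase) by 1.81, among 5 other glycolysis genes higher and 5 lower of 14, led by Eno3 (-4.94) and Tigar (-1.84). Of 21 TCA cycle genes 3 were higher and 11 lower, and of 7 pentose phosphate genes 1 was higher and 5 lower.

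Infiltrating monocytes and resident microglia, both myeloid cells, could be compared in 4 hashtag samples (5, 6, 7 and 8). Monocytes carried more of most of the pathway, while microglia carried more Hk2, Pfkfb3, Pdk1 and P4ha1. Of the 22 genes that passed the filter on low counts, 15 were higher in monocytes, 4 lower and 3 not passed, where 58.3% of 6762 genes passed (28.2% higher, 30.1% lower). The median of these 22 was 1.11, beside -0.08 over all genes. The other 9 members were too low in these cells to be tested. The median UMI count per cell was 9118 in monocytes and 7662 in microglia, and Rhox5 stood at 2.85% of its level in Krt8+ Ptprc- cells in monocytes and at 3.26% in microglia.

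Pfkp, the platelet phosphofructokinase of the rate-limiting step, was 95.5, 113, 182 and 153 CPM in monocytes of hashtag samples 5, 6, 7 and 8, and 10.6, 6.83, 7.35 and 11.7 CPM in microglia, a log2 fold change of 4.16 (SE 0.24, adjusted p = 3.57e-10). Ndrg1 was 62.7, 44.2, 31.8 and 49.7 CPM in monocytes and 8.46, 7.80, 7.35 and 9.78 CPM in microglia, a log2 fold change of 2.83 (SE 0.27, adjusted p = 1.93e-07). Slc2a1 was 70.9, 90.3, 97.5 and 101 CPM in monocytes and 30.7, 22.4, 23.5 and 31.3 CPM in microglia, a log2 fold change of 2.03 (SE 0.20, adjusted p = 3.12e-07). Monocytes were higher in 4 of 4 samples for these 3 genes, and no groups overlapped. Slc16a3 was 163, 134, 187 and 212 CPM in monocytes and 58.2, 71.2, 50 and 44.99 CPM in microglia, a log2 fold change of 1.92 (SE 0.20, adjusted p = 4.77e-07, 4 of 4). Pgk1 rose by 1.99 (SE 0.18, adjusted p = 7.84e-08) and Pkm by 1.84 (SE 0.16, adjusted p = 7.17e-08), each in 4 of 4.

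Gapdh and Ldha differed less. Ldha was 431, 398, 530 and 560 CPM in monocytes and 293, 416, 262 and 323 CPM in microglia, a log2 fold change of 0.90 (SE 0.17, adjusted p = 0.000262). Gapdh was 1304, 1247, 1514 and 1535 CPM in monocytes and 1050, 1438, 909 and 1297 CPM in microglia, a log2 fold change of 0.60 (SE 0.14, adjusted p = 0.00191). In hashtag sample 6 both were higher in microglia, so each was higher in monocytes in 3 of 4 samples.

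Hexokinase genes went both ways. Hk1 was 17.5, 28.8, 42.4 and 41.4 CPM in monocytes and 5.29, 14.6, 16.2 and 17.6 CPM in microglia, a log2 fold change of 1.61 (SE 0.28, adjusted p = 0.000129, higher in 4 of 4), and Hk3, which is not among the 31 genes, rose by 0.82 (SE 0.23, adjusted p = 0.00578, 3 of 4). Hk2 was lower in monocytes, at 73.9, 40.3, 70.0 and 79.3 CPM in monocytes and 157, 133, 153 and 164 CPM in microglia, a log2 fold change of -0.88 (SE 0.17, adjusted p = 0.000264). Pfkfb3 was 27.7, 40.3, 19.1 and 42.6 CPM in monocytes and 88.9, 65.3, 83.8 and 115 CPM in microglia, a log2 fold change of -1.12 (SE 0.21, adjusted p = 0.000271). Pdk1 was 4.11, 7.68, 4.24 and 5.92 CPM in monocytes and 44.4, 35.1, 42.7 and 39.1 CPM in microglia, a log2 fold change of -2.56 (SE 0.34, adjusted p = 6.81e-06). Microglia were higher in 4 of 4 samples for Hk2, Pfkfb3 and Pdk1, without overlap. P4ha1 fell by 0.53 (SE 0.18, adjusted p = 0.0226, lower in 4 of 4). Without TMM the median of all genes moved down by 0.35, the genes that passed were 31.1% higher instead of 48.4%, and the members' split was 13 higher and 4 lower.

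Microglia also held Slc2a5, the fructose transporter GLUT5, at 106 to 149 CPM, against 0 to 1.18 CPM in monocytes (log2 fold change -7.59, SE 0.42, adjusted p = 2.98e-10), and Ldhb at 378 to 432 CPM, against 23.7 to 40.3 CPM in monocytes (-3.46). Of 11 other glycolysis genes tested, 5 were higher in monocytes, led by Pdk3 (1.58) and Pgm1 (phosphoglucomutase, 1.33), and 3 lower. Of 21 other hypoxia response genes 10 were higher, led by Anxa2 (annexin A2, 4.66) and Vegfa (4.15), and 1, Plod1 (a lysyl hydroxylase, -2.31), was lower. Of 7 pentose phosphate genes 5 were higher, led by Taldo1 (transaldolase, 1.76), and 2 did not pass. Of 21 TCA cycle genes 4 were higher and 2 lower.

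Monocytes were compared with macrophages, which in tumours descend largely from them, in 6 hashtag samples (2, 3, 5, 6, 7 and 8), with cells that the comparisons above also used. Of 21 genes that passed the filter on low counts, 7 were higher in monocytes, 3 lower and 11 not passed, where 46.4% of 6480 genes passed (23.7% higher, 22.7% lower). The median of these 21 was 0.21, beside -0.04 over all genes. Monocytes had more of the transporters Slc2a1 and Slc16a3 and of Pfkp, and macrophages more Tpi1. Hashtag doublets were 6.61% of barcodes in the monocyte gate and 18.2% in the macrophage gate, with median UMI counts of 9118 and 14140. Rhox5 stood at 2.85% of its level in Krt8+ Ptprc- cells in monocytes and at 2.72% in macrophages. The part of doublets and depth in these differences was not tested.

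Slc2a1 was 70.9 to 104 CPM in monocytes (median 98.5) and 36.3 to 78.7 CPM in macrophages (median 45.1), a log2 fold change of 1.04 (SE 0.13, adjusted p = 1.45e-05, higher in 6 of 6). Pfkp was 83.1 to 182 CPM in monocytes (median 106) and 42.03 to 108 CPM in macrophages (median 66.5), a log2 fold change of 0.88 (SE 0.13, adjusted p = 5.05e-05, 6 of 6). Slc16a3 was 134 to 212 CPM in monocytes (median 170) and 68.3 to 178 CPM in macrophages (median 106), a log2 fold change of 0.74 (SE 0.12, adjusted p = 9.05e-05, 6 of 6). These ranges overlapped, although every sample had the higher value in monocytes. Ndrg1 rose by 0.69 (SE 0.14, adjusted p = 0.000915), Pgk1 by 0.46 (SE 0.09, adjusted p = 0.000841) and Pkm by 0.44 (SE 0.08, adjusted p = 0.000199), each in 6 of 6.

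Tpi1 was 146 to 253 CPM in monocytes (median 176) and 290 to 471 CPM in macrophages (median 369), a log2 fold change of -0.84 (SE 0.08, adjusted p = 6.48e-07, lower in 6 of 6, no overlap). Aldoa (aldolase A) fell by 0.39 (SE 0.10, adjusted p = 0.00535, lower in 6 of 6) and Gapdh by 0.20 (SE 0.06, adjusted p = 0.0139, lower in 6 of 6). Hk2 (0.29, adjusted p = 0.155) and Ldha (-0.09, adjusted p = 0.328) did not pass. Without TMM the median of all genes moved down by 0.16, the genes that passed were 33.5% higher instead of 51.0%, and the members' split was 6 higher and 6 lower. Lower members were 5 without the filter on low counts and 7 with each cell weighted equally (limma).

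Of 21 other hypoxia response genes, 9 were higher in monocytes, led by Hif1a (the HIF-1 alpha subunit, 1.42) and Anxa2 (1.23), and 3 lower, led by Plod1 (-1.21) and Mif (a cytokine, -0.97). Of 9 other glycolysis genes 5 were higher, led by Ldhb (1.20) and Pdk3 (1.08). Of 7 pentose phosphate genes 3 were higher, led by Taldo1 (0.88), and of 21 TCA cycle genes 1 was higher and 2 lower.

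CD8 T cells and NK cells, the cytotoxic lymphocytes, were compared in 3 hashtag samples (5, 7 and 8). Only 13 members passed the filter on low counts, of which 2 were higher in CD8 T cells and 11 did not pass, where 15.9% of 4584 genes passed (7.13% higher, 8.81% lower). No tested member was lower, also at an unadjusted p under 0.05 by edgeR or DESeq2 (0 and 0). The median of the 13 was 0.26, beside 0 over all genes. None of the 8 hypoxia response genes passed the filter. Of these, Ndrg1 was 6.93 to 16.7 CPM in CD8 T cells and 25.3 to 46.4 CPM in NK cells. Ankrd37 went the other way, at 8.32 to 14.2 CPM in CD8 T cells (29 UMIs) and 0 to 4.61 CPM in NK cells (3 UMIs). The ranges of the remaining 6 overlapped. Bnip3, Adm, Car9, Egln3 and P4ha2 were higher in CD8 T cells in 0 of 3 samples, and P4ha1 in 3 of 3. Ldha was 527, 537 and 726 CPM in CD8 T cells and 371, 335 and 370 CPM in NK cells, a log2 fold change of 0.70 (SE 0.15, adjusted p = 0.00127, 3 of 3). Gapdh was 1123, 1230 and 1739 CPM in CD8 T cells and 843, 810 and 899 CPM in NK cells, a log2 fold change of 0.64 (SE 0.13, adjusted p = 0.00111, 3 of 3). Neither gene's groups overlapped. Pgk1 (183, 233 and 308 CPM in CD8 T cells, 168, 171 and 152 CPM in NK cells) stopped short at 0.52 (SE 0.18, adjusted p = 0.0539).

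Without hashtag sample 5 the count of higher members was 4 and without the filter on low counts it was 5, with 1 lower. Slc2a1 (30.5, 16.7 and 22.5 CPM in CD8 T cells, 25.3, 17.8 and 22.2 CPM in NK cells) and Hk2 (15.3, 10.0 and 17.96 CPM in CD8 T cells, 11.5, 7.13 and 6.33 CPM in NK cells) were too low to be tested. Outside the members Vegfa differed most among the 16 other hypoxia response genes tested, at 1.39 to 3.33 CPM in CD8 T cells and 139 to 203 CPM in NK cells (log2 fold change -6.50, SE 0.37, adjusted p = 9.05e-12). Of these 16, 2 were higher in CD8 T cells (Mxi1, a Myc antagonist, 1.55, and Mif, 0.74) and 3 lower.

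Isoform choice was described as the share of a family's UMIs that came from 1 gene, computed per hashtag sample. Reads were counted near the 3' end, where capture may differ between genes, so only the same gene's share was compared between cell types. Hk2 made up a median of 2.50% of hexokinase UMIs in endothelial cells, 45.8% in Krt8+ Ptprc- cells, 42.8% in monocytes, 34.7% in macrophages and 73.6% in microglia. Hk3 made up 46.3% in macrophages, 31.4% in monocytes and 18.5% in microglia, and at most 0.36% in any hashtag sample of Krt8+ Ptprc- cells. Of the 298 hexokinase UMIs in endothelial cells, 10 were from Hk2 and 2 from Hk3.

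Pfkp made up a median of 76.2% of phosphofructokinase UMIs in monocytes (71.7 to 85.5%) and 15.5% in microglia (11.3 to 21.3%). These ranges did not overlap. Ldhb made up a median of 55.8% of lactate dehydrogenase UMIs in microglia (51.0 to 59.7%). It was 0.01 to 0.02% in Krt8+ Ptprc- cells and at most 10.7% in the 3 other types. Of lactate transporter UMIs, Slc16a3 made up 5.56% in endothelial cells (3.23 to 30.0%), 80.6% in Krt8+ Ptprc- cells (73.5 to 84.2%) and 95.5% in macrophages (94.3 to 100%). Pfkfb3 made up a median of 80.0% of the UMIs of Pfkfb3 and Pfkfb4 in endothelial cells and 43.2% in Krt8+ Ptprc- cells of the same samples (higher in 7 of 7). P4ha2 was 39.7% of prolyl 4-hydroxylase alpha UMIs in Krt8+ Ptprc- cells and 1.80% in macrophages.

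**Figure D3:**
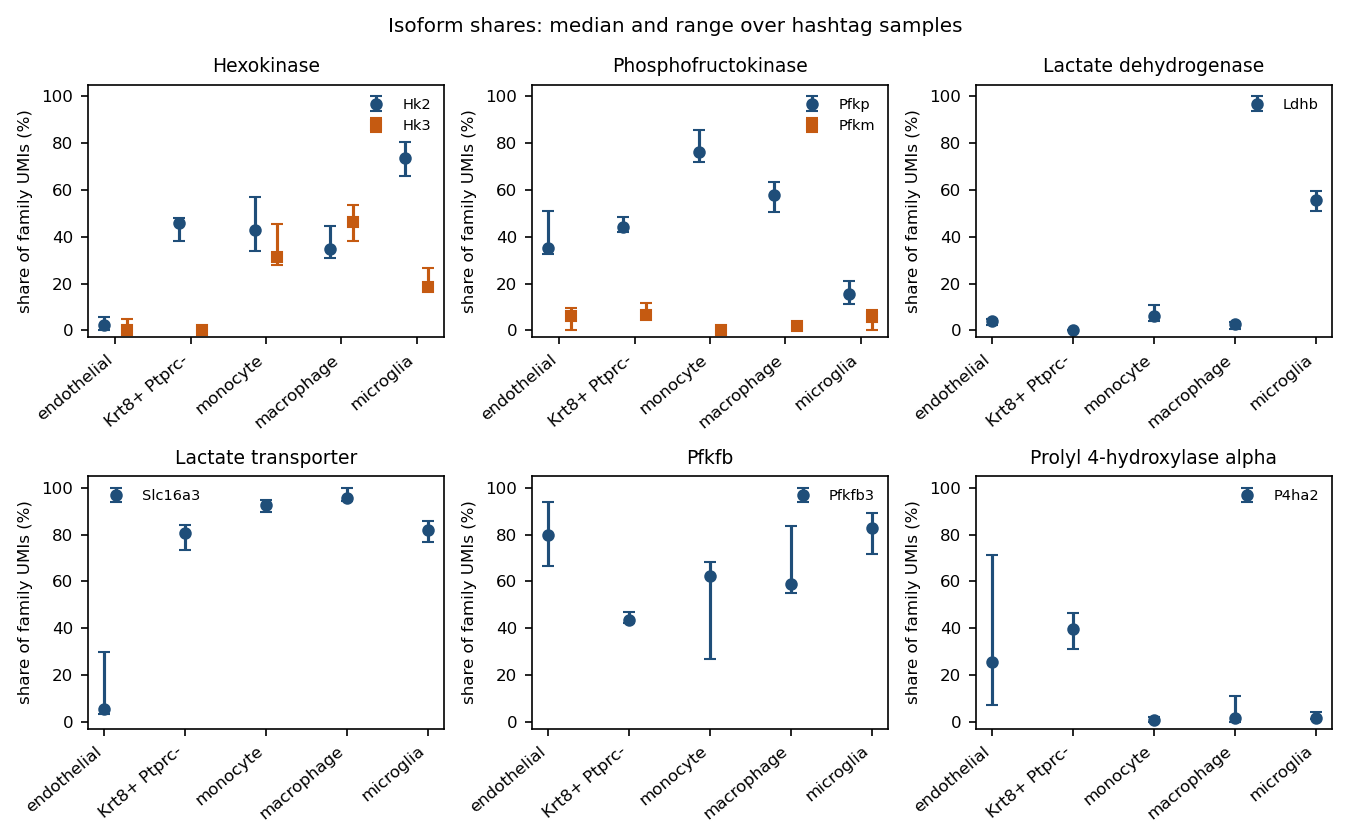
Share of family UMIs (percent, y axis) from the named isoform in 5 gated cell types, as the median (point) and range (bar) over usable hashtag samples. Microglia lie apart for Hk2, Pfkp and Ldhb, endothelial cells for Hk2 and Slc16a3.

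The 44 share differences between paired cell types were tested with an exact two-sided sign-flip permutation test over hashtag samples, on logits with 0.5 added to the counts. After Benjamini-Hochberg adjustment over the 44, none passed, and the smallest adjusted p was 0.0598. The design limits this: the smallest p possible is 0.0156 with 7 pairs, 0.0313 with 6 and 0.125 with 4. Unadjusted, 23 lay under 0.05. Among these were Hk3 and Eno2 in endothelial against Krt8+ Ptprc- cells, with mean logit differences of 1.86 and 1.18. Their shares were higher in endothelial cells in only 2 and 1 of 7 samples. Endothelial cells held 2 UMIs of Hk3 and 1 of Eno2, so the added 0.5 weighs on both values and they show no isoform difference. With hashtags called by a margin rule instead, which adds a seventh pair for macrophages, 15 passed. As examples, Hk2 was lower in endothelial than in Krt8+ Ptprc- cells in 7 of 7 samples (exact p = 0.0156, adjusted 0.0598), and Pfkp higher in monocytes than in macrophages in 6 of 6 (exact p = 0.0313, adjusted 0.0598).

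Within the Krt8+ Ptprc- cells, cells were ranked by a hypoxia score, the summed level of 12 other hypoxia targets with Vegfa and Bnip3l among them. Within each of hashtag samples 2 to 8, the third of cells with the highest score (high-score cells) was set against the third with the lowest (low-score cells). The 12 genes of the score are left out of every count here, and many members are known targets of the same factor, so their shared direction is not independent evidence. Of 31 members, 27 were higher in high-score cells, 4 did not pass and 0 were lower (0 also at an unadjusted p under 0.05, by edgeR and DESeq2). Over all 11143 genes 33.7% passed, 17.7% higher and 16.0% lower. The members' median was 0.76, beside 0 over all genes. Both groups held 1471 cells, with median UMI counts of 85480 in high-score cells and 81940 in low-score cells.

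All 8 hypoxia response genes rose. Car9 was 3.22 to 16.3 CPM in high-score cells (median 10.2) and 0.133 to 0.827 CPM in low-score cells (median 0.504), a log2 fold change of 4.27 (SE 0.14, adjusted p = 1.52e-11, 7 of 7). Bnip3 was 49.6 to 181 CPM in high-score cells (median 119) and 8.74 to 15.1 CPM in low-score cells (median 10.3), a log2 fold change of 3.20 (SE 0.11, adjusted p = 1.52e-11, 7 of 7). Adm was 69.4 to 252 CPM in high-score cells (median 155) and 21.6 to 44.5 CPM in low-score cells (median 32.3), a log2 fold change of 2.11 (SE 0.18, adjusted p = 5.96e-07, 7 of 7). In these 3 genes, the summed value of low-score cells in any hashtag sample stayed below every summed value of high-score cells. These are sums per hashtag sample, so single cells of both groups may overlap. Ankrd37 rose by 1.66 (SE 0.11, adjusted p = 4.62e-08), Aldoc by 1.53 (SE 0.16, adjusted p = 4.11e-06) and Egln3 by 1.42 (SE 0.11, adjusted p = 1.54e-07), each in 7 of 7.

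Most genes of the pathway itself changed by less than these. Slc2a1 was 84.7 to 199 CPM in high-score cells (median 127) and 41.3 to 52.9 CPM in low-score cells (median 47.0), a log2 fold change of 1.37 (SE 0.11, adjusted p = 3.99e-07, 7 of 7). Pgk1 was 719 to 1144 CPM in high-score cells (median 921) and 447 to 532 CPM in low-score cells (median 521), a log2 fold change of 0.85 (SE 0.05, adjusted p = 2.98e-08, 7 of 7). Ldha was 1437 to 2016 CPM in high-score cells and 886 to 1179 CPM in low-score cells, a log2 fold change of 0.76 (SE 0.04, adjusted p = 8.77e-09, 7 of 7). Hk2 rose by 0.72 (SE 0.07, adjusted p = 2.4e-06, 7 of 7) and Gapdh by 0.53 (SE 0.04, adjusted p = 4.52e-07, 7 of 7). The 15 enzymes that passed lay between 0.24 (Pfkm) and 1.53 (Aldoc).

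Of the lactate transporters, Slc16a3 rose by 0.76 (SE 0.04, adjusted p = 8.77e-09, 7 of 7), whereas Slc16a1 was 64.4 to 96.4 CPM in high-score cells (median 70.3) and 64.4 to 96.3 CPM in low-score cells (median 76.3), at -0.07 (SE 0.03, adjusted p = 0.153), and the difference between both transporters was not tested. The other members that did not pass were Slc2a3, Eno2 and Pfkfb4. Of 16 other hypoxia response genes outside the score, 11 were higher, led by Gbe1 (1.38) and Gys1 (glycogen synthase, 0.89), and 5 did not pass. Of 14 other glycolysis genes 4 were higher, Pgm2 (a phosphoglucomutase, 1.503) among them, and 2 lower, and of 21 TCA cycle genes 2 were higher and 4 lower. High-score cells had less of the division genes, with a median of 4.75 UMIs of 6 division genes per 10000 UMIs in high-score cells and 8.83 in low-score cells. With resting cells only, 26 members were higher.

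Dividing Krt8+ Ptprc- cells (at least 5 UMIs of these 6 genes per 10000) were in turn compared with resting ones (below 2 per 10000) in hashtag samples 2 to 8. With hashtag sample 1 added, there were 2576 dividing and 1232 resting cells. Their median UMI counts were 92810 in dividing and 72830 in resting cells. Hashtag doublet shares were 14.05% among barcodes of dividing cells and 8.62% among those of resting cells. The part of depth and doublets in the differences below was not tested. Of 31 members 1 was higher in dividing cells, 26 were lower and 4 did not pass, where 58.6% of 11308 genes passed (29.1% higher, 29.5% lower). The members' median was -0.29, beside -0.02 over all genes. Without the hashtag block 0 were higher and 16 lower. The hypoxia score moved with this split, at a median of 8.18 per 10000 UMIs in dividing and 9.23 in resting cells. With high-score cells left out, a choice made after seeing the data, 4 members were higher and 14 lower, and 7 changed sign.

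Car9 was 1.03 to 3.90 CPM in dividing cells (median 1.93) and 2.95 to 14.1 CPM in resting cells (median 7.41), a log2 fold change of -1.75 (SE 0.17, adjusted p = 2.12e-08, lower in 7 of 7). Bnip3 was 20.2 to 58.9 CPM in dividing cells (median 39.2) and 42.9 to 127 CPM in resting cells (median 91.5), a log2 fold change of -1.07 (SE 0.05, adjusted p = 1.71e-13, 7 of 7). Ndrg1 was 80.5 to 144 CPM in dividing cells (median 107) and 179 to 284 CPM in resting cells (median 232), a log2 fold change of -1.06 (SE 0.03, adjusted p = 2.64e-17, 7 of 7). Only Ndrg1 of these 3 had groups without overlap. Aldoc fell by 1.17 (SE 0.11, adjusted p = 9.89e-09), Slc2a1 by 0.71 (SE 0.04, adjusted p = 1.1e-11) and Pfkp by 0.56 (SE 0.04, adjusted p = 1.18e-10), each in 7 of 7.

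Hk2 fell by 0.52 (SE 0.04, adjusted p = 2.26e-10, lower in 7 of 7) and Pgk1 by 0.29 (SE 0.04, adjusted p = 5.18e-07, 7 of 7). The abundant enzymes moved little: Gapdh fell by 0.11 (SE 0.03, adjusted p = 0.00348, 7 of 7), and Ldha by 0.10 (SE 0.03, adjusted p = 0.0183, lower in 5 of 7). Ldha was among the 7 genes that changed sign without high-score cells (0.09, adjusted p = 0.0229), as were Tpi1 (0.11, adjusted p = 0.0143) and Pgam1 (0.09, adjusted p = 0.0288). The one higher member was Slc16a1, at 70.8 to 94.3 CPM in dividing cells (median 77.5) and 53.2 to 97.5 CPM in resting cells (median 65.6), a log2 fold change of 0.26 (SE 0.04, adjusted p = 2.45e-05, higher in 6 of 7). Of 21 TCA cycle genes 16 were higher and 5 did not pass (median 0.15), led by Sdhd (succinate dehydrogenase subunit D, 0.32) and Idh3a (an isocitrate dehydrogenase subunit, 0.31). Of 28 other hypoxia response genes 1 was higher and 20 lower, led by Gbe1 (-1.14).

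**Figure D4:**
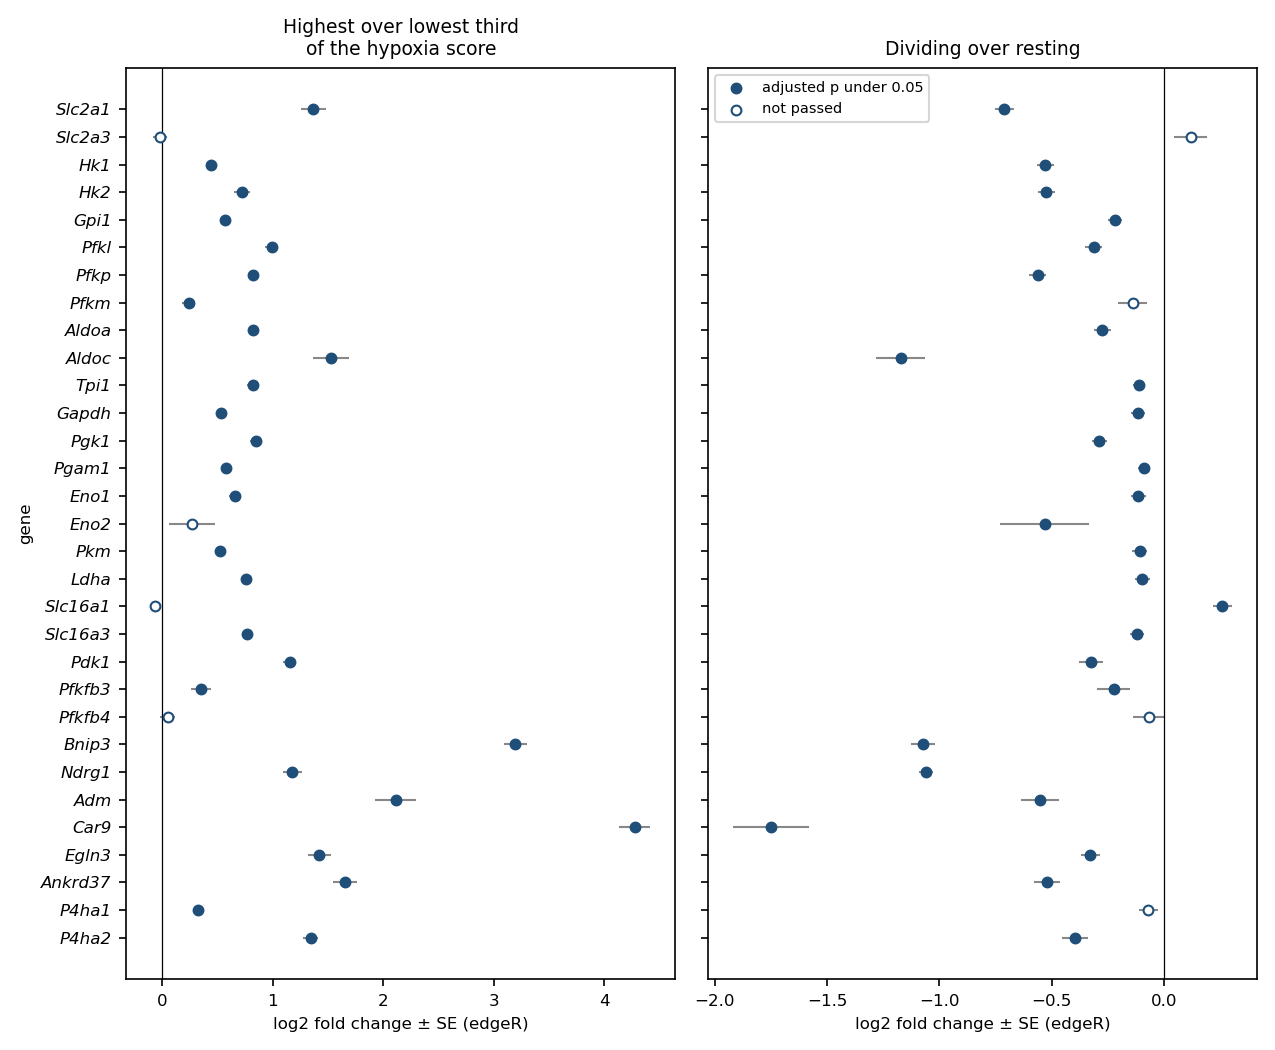
Log2 fold change with its standard error (edgeR) of the 31 genes between high-score and low-score cells (left) and between dividing and resting cells (right), all Krt8+ Ptprc- cells of hashtag samples 2 to 8. Filled points had an adjusted p under 0.05. Car9 and Bnip3 lie farthest right on the left side, at 4.27 and 3.20, and Slc16a1 is the one filled point above 0 on the right side, at 0.26.

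Krt8+ Ptprc- cells were present in all 8 hashtag samples. Bnip3 was 44.3, 78.3, 55.8, 53.2, 24.5, 32.8, 30.5 and 53.8 CPM in samples 1 to 8, and Adm was 144, 116, 103.0, 96.3, 46.9, 69.7, 42.5 and 75.4 CPM. Samples 5, 6 and 7 had the 3 lowest values of both genes. Slc2a1 was 71.1, 112, 83.2, 73.5, 66.1, 68.0, 59.5 and 79.3 CPM, with sample 2 the highest. Gapdh was 3562, 3987, 3798, 3626, 3383, 3306, 3069 and 3738 CPM, and again samples 5, 6 and 7 were the lowest. Egln3 had a narrower range in proportion than Bnip3 and Adm, at 65.2 to 93.9 CPM. No test was made between hashtag samples.

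Cell-to-cell spread was measured in 4272 Krt8+ Ptprc- cells thinned to 40000 UMIs each, with 134 shallower cells left out. A count that varied by sampling alone would have a variance equal to its mean. The variance over the mean was 18.6 for Gapdh (median 131 UMIs per cell, 10th to 90th percentile 89 to 197, highest 709) and 9.36 for Ldha (median 48, 28 to 80, highest 237). For Adm it was 15.4 at a median of only 1 UMI (0 to 7, 99th percentile 34, highest 107), and for Bnip3 it was 6.00 at a median of 1 (0 to 5, 99th percentile 17, highest 30). Their UMIs were unevenly spread over cells: the tenth of cells with the most UMIs held 53.9% of those of Adm and 54.5% of those of Bnip3, against 24.4% for Slc16a1, whose mean of 3.08 UMIs per cell was near that of Adm. This ratio and this share depend on a gene's level, so they were set side by side at a like mean. At 3.04 to 3.23 UMIs per cell, the variance over the mean was 15.4 for Adm, 4.49 for Slc2a1, 3.55 for Egln3 and 1.53 for Slc16a1.

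Of the 120 pairs among the 16 enzymes, 37 had a Spearman's rho over cells above 0.3 (median 0.15), and the highest were between abundant enzymes. Spearman's rho over cells, given as a description because cells of 1 hashtag sample share their library, was 0.71 between Tpi1 and Ldha (0.58 to 0.75 within hashtag samples), 0.65 between Pgk1 and Ldha and 0.65 between Tpi1 and Pgk1. Bnip3 followed the enzymes, at 0.52 with Tpi1, whereas Slc16a1 ran slightly against Gapdh, at -0.16. The summed enzymes and the summed hypoxia genes had a rho of 0.42 over all cells, and 0.59, 0.42, 0.55, 0.21, 0.39, 0.40 and 0.52 within hashtag samples 2 to 8. Of 465 pairs of members 66 exceeded a rho of 0.3, and 30 did so in every one of hashtag samples 2 to 8. Depth bears on this count, which was 43 when cells were thinned to 20000 UMIs. Within single hashtag samples it was 38 to 130, and the cause of that range was not tested. Pairs of other genes were not counted, so whether the counts of enzyme pairs and member pairs differ from the background is not known.

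**Figure D5:**
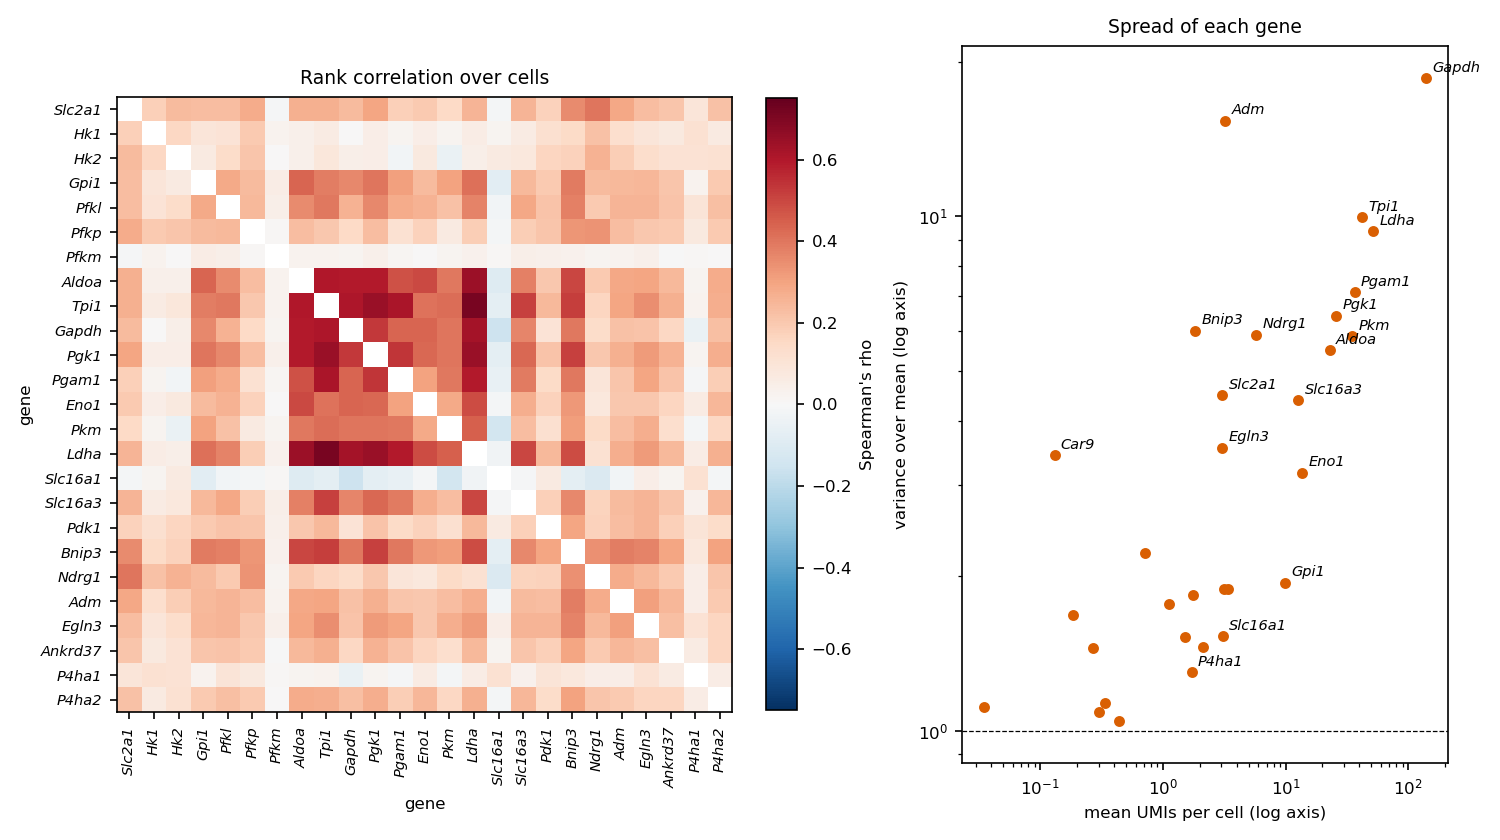
Left, Spearman's rho between pairs of 25 members over 4272 Krt8+ Ptprc- cells thinned to 40000 UMIs. Right, variance over mean of each gene against its mean UMIs per cell, both on log axes, with the dashed line at a ratio of 1. The block from Aldoa to Ldha is the darkest, Slc16a1 is pale or blue, and Adm stands at 15.4 at a mean of 3.23 UMIs.

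Neutrophils and regulatory T cells had too few usable hashtag samples for a test, and their pooled values carry exact 95% Poisson intervals that cover counting error only. Slc16a3 was 449 CPM in 55 neutrophils (369 to 542) and 172 CPM in monocytes (159 to 185), Slc2a3 was 157 CPM in neutrophils (111 to 215) and 0.257 CPM in monocytes, and Pfkfb4 was 74.2 CPM in neutrophils (44.0 to 117) and 19.8 CPM in monocytes (15.6 to 24.8). The intervals of Slc2a1 overlapped, at 107 CPM in neutrophils (70.0 to 157) and 90.8 CPM in monocytes (81.6 to 101). In hashtag samples 5, 6, 7 and 8, Slc16a3 was 399, 521, 166 and 624.6 CPM in 9 to 19 neutrophils each, so sample 7 was below the pooled level of monocytes. In 104 regulatory T cells Ldha was 916 CPM (858 to 976), against 561 CPM (507 to 619) in 136 conventional CD4 T cells, and sample 7 was the highest of hashtag samples 5 to 8 in regulatory T cells, at 848, 724, 1406 and 608 CPM. Pgk1 was 347 CPM in regulatory T cells (312 to 385) and 209 CPM in conventional CD4 T cells (177 to 246), and Tpi1 315 CPM in regulatory T cells (281 to 351) and 158 CPM in conventional CD4 T cells (130 to 190). Regulatory T cell barcodes had 9.40% hashtag doublets and conventional CD4 T cell barcodes 2.16%, and the part of this in the differences was not tested.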

How the data were processed

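UMI counts per gene and barcode were used as deposited; per the submitters' processing notes they came from Cell Ranger 3.1 on mm10, with Seurat 3.1.1 also named. A barcode needed 500 detected genes and no more than 15% mitochondrial UMIs, which 12334 of 12908 met, and hashtags were called with HTODemux (quantile 0.99), leaving out 1712 hashtag doublets and 726 negatives. No other doublet caller was run. Sums of raw counts were formed for each gate in each hashtag sample, with at least 20 cells of both types in at least 3 hashtag samples, and tested with edgeR 4.0.16 (quasi-likelihood, TMM, filterByExpr, R 4.3.3) with Benjamini-Hochberg adjustment over all genes and a threshold of 0.05. Gate markers were left out of the tested genes. The procedure was also run on simulated counts with few changed genes and no hashtag effect. Such counts cannot test the block, or the scaling where most genes differ. A hashtag marks 1 sample, so cell types of the same number are paired and the block belongs to the design. The correlation of same-numbered deviations was -0.0163 to 0.26 between cell types and 0.323 to 0.632 in the splits of Krt8+ Ptprc- cells.

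The members and gene lists were chosen with earlier results of these data known. Named were, per comparison, up to 6 passing members with the largest change in each direction, plus Slc2a1, Hk2, Gapdh, Ldha and Pgk1, and up to 2 genes per direction of each other list, of which 1 gene is not reported here. Other genes are named to complete a count, a family or a description, and those were chosen after their values were seen. Counting may split reads of genes with near-identical copies, such as Gapdh and Eno1, so these levels are uncertain. Aldoa has 2 rows in the matrix, and the one with 365087 UMIs was used (the other holds 28). Alternatives were DESeq2 1.42.0, limma 3.58.1 on per-cell means, other hashtag calls, gates, filters and scalings, no hashtag block, and leaving out each hashtag sample.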

Additional observations from a re-analysis of the deposited data

Results flagged for a closer look

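In groups of 4 to 8 hashtag samples, a value was listed where its gap to the nearest other sample was a large part of the group's range (Dixon's test). Of 216 groups of a gene and a cell type, 24 were listed, where chance lists about 1 in 20, and 6 of the 24 rest on 1 UMI. The causes were not tested.

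In Krt8+ Ptprc- cells, Slc2a1 was 112.4 CPM in hashtag sample 2 (median 72.3), Slc16a1 was 96.5 CPM in sample 7 (median 73.4) and Pfkfb3 was lowest in sample 4 at 5.723 CPM (median 6.71). In endothelial cells, Slc2a1 was 3065 CPM in sample 4 (median 1465, 818 UMIs), where Pfkm was listed at 0 (median 8.79), and Aldoa was 523.0 CPM in sample 3 (median 346). NK cells of sample 2 were high for 4 members: Ldha 703.3 CPM (median 371), Pkm 486.9 (median 311), Pgk1 281.3 (median 170) and Slc2a3 64.92 (median 28.5), the last on 6 UMIs. In CD8 T cells of sample 8, Aldoa was 645.2 CPM (median 374).

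Bnip3 was high in sample 8 in both monocytes (91.12 CPM, median 29.8) and microglia (33.25 CPM, median 16.4, 17 UMIs), and Ankrd37 in microglia of sample 8 (17.61 CPM, median 1.96, 9 UMIs). Pfkfb3 was 59.26 CPM in macrophages of sample 7 (median 31.3). On 5 to 11 UMIs rest Eno2 (4.163 CPM in sample 5) and P4ha2 (6.754 CPM in sample 6) in macrophages, and P4ha2 in microglia of sample 5 (5.289 CPM). On 1 UMI each rest Eno2 in monocytes of sample 8 (1.183 CPM), in microglia of sample 6 (0.9753 CPM), in endothelial cells of sample 6 (0.8639 CPM) and in CD8 T cells of sample 8 (0.7484 CPM), Car9 in the same CD8 T cells (0.7484 CPM), and Slc2a3 in monocytes of sample 6 (1.921 CPM).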

How the results depend on the processing

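Counts of members called in the Krt8+ Ptprc- cells against macrophages, endothelial, monocyte and CD8 T cell comparisons and in both splits were recomputed under each alternative. For Krt8+ Ptprc- cells against macrophages, lower members were 7 without TMM and 5 with limma at equal weight per cell, and Pkm turned to 0.058 and 0.113 under these. In endothelial cells, 3 members were higher with stricter gates, and without TMM the median of all genes moved up by 0.15. For monocytes against macrophages, lower members were 5 without the filter on low counts, 6 without TMM and 7 with limma. For CD8 T cells against NK cells, 5 were higher and 1 lower without that filter, and leaving out each hashtag sample gave 2 to 4 higher (4 without sample 5). In dividing cells, the replicate block mattered: without it 0 were higher and 16 lower. With high-score cells left out, 4 were higher and 14 lower, and Eno1 (0.019), Tpi1 (0.112), Ldha (0.092), Pkm (0.012), Slc16a3 (0.052), Egln3 (0.111) and Pgam1 (0.091) turned positive. Dropping the block moved no other count of calls by over 1.5 times. Isoform share differences that passed were 15 under the margin rule for hashtags. Pairs with a rho over 0.3 were 43 at 20000 UMIs, and 130, 102, 38 and 108 in hashtag samples 2, 3, 5 and 8 alone. The causes were not tested, except that the margin rule adds a hashtag sample. With DESeq2, 172 member values kept their direction and side of the threshold and 6 no longer passed. Among the edgeR comparisons, stricter gates left enough cells only for the endothelial one, so this alternative was not run for the others or for levels by cell type, and no alternative was run for neutrophils or regulatory T cells. Few cells per hashtag sample in the immune gates limit the depth, so that 9 members in monocytes against microglia, 10 against macrophages and 18 in CD8 T cells against NK cells were not tested.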

Other observations

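Mature dendritic-like cells (42 cells, gated on Ccr7 and Fscn1) were in no comparison. Their pooled Pfkfb3 level was 186 CPM (exact 95% Poisson interval 143 to 237, counting error only) and their Ndrg1 level 122 CPM (87.8 to 165), and 10.6% of barcodes in this gate were hashtag doublets. Of the 64 Pfkfb3 UMIs, 23 came from 8 cells of hashtag sample 7 (530 CPM) and 20 from 18 cells of sample 5 (129 CPM).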
